A study of Mus musculus with 6 samples.

Results

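Deep intron peaks are stretches listed as peaks in an assay of open chromatin. They lie inside a gene, past its first intron and more than 50 kb from the start of the transcript they are assigned to. They were chosen by the deposited annotation alone, as peaks in an intron other than intron 1 whose gene is the same in both of the table's annotations and whose distance to the transcript start exceeds 50 kb. The rule took 3708 of 22412 peaks (16.5%), in 1767 genes. The assay was ATAC-seq of nuclei from mouse liver: a transposase enters the nuclei, cuts DNA where chromatin is open and leaves sequencing adapters there. In the control group, labelled Ad-EGFP (3 libraries), the adenovirus carried EGFP, a green fluorescent protein. In the other group, labelled Ad-Dyrk1b (3 libraries), it carried Dyrk1b, a protein kinase, which was thereby overexpressed. Liver is the source of every library, and all of them carry an adenovirus. Strain, age, sex, promoter of the transgene and time after infection were not found in these sources. The labels do not say that the libraries of a group came from separate animals, and the p-values cover only the spread among these libraries, part of which may be technical.

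Introns of long genes hold many of a tissue's enhancers, short elements bound by transcription factors that can act on a start site far away, whether that of the host gene or of a neighbour. Their openness differs more between cell types than that of promoters, which are open in most cells where the gene is expressed. Whole liver is mostly hepatocytes by mass, with endothelial, Kupffer, stellate and other cells among them. In such a mixture, fewer cells of a type and less open chromatin per cell cannot be told apart.

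Sequences of the peaks themselves are not printed, since no genome of the table's build was used here. The start sites of a pair of host genes are shown instead, because each of these genes had both a deep intron peak and a peak at its start. Adk encodes adenosine kinase, which converts adenosine to AMP, and Tmem131l encodes a transmembrane protein. Both genes were chosen after their values were seen. RefSeq sequences (GRCm38.p6) were matched by gene symbol only, since positions in the deposited table follow another build. RefSeq lists a pair of starts for Adk, and which of them the deposited peak marks was not tested. Each line gives the 250 bases before a start, and capitals mark GGGCGG or its reverse complement CCGCCC, the core of the GC box that Sp1-type factors bind, with overlapping copies marked once.
Adk upstream, first start (chr14:21052324-21052573, plus strand): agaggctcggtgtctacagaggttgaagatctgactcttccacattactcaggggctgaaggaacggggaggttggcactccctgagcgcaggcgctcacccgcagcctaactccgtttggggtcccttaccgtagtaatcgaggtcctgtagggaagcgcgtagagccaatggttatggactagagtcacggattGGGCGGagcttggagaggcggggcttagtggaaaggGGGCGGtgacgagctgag
Adk upstream, other start (chr14:21075902-21076151, plus strand): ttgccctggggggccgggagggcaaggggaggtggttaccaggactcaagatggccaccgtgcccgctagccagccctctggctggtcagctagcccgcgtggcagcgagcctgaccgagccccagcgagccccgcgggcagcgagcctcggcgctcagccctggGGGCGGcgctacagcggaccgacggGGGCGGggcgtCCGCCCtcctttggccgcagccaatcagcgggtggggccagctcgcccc
Tmem131l upstream (chr3:84040162-84040411, minus strand): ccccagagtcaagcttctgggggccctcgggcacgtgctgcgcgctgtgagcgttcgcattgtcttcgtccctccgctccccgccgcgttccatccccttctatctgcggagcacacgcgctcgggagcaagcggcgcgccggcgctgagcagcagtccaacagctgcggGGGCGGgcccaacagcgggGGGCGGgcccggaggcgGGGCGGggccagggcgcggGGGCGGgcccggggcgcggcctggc

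These upstream stretches held 15, 24 and 33 CG dinucleotides, and GC contents of 58.8%, 75.2% and 76.8%. GGGCGG on either strand lay in all of them, against 32.7% of the 32851 RefSeq promoters of the same length. Of the 1637 genes with a deep intron peak and a symbol, 1271 matched a RefSeq promoter, and 52.9% of their 1841 promoters held GGGCGG. Those promoters had a median of 14 CG dinucleotides, against 6 over all promoters. TATAAA, the core of the TATA box, lay on either strand in 7.50% of them and in 12.4% of all promoters. Start sites of genes with a deep intron peak were thus richer in CG than RefSeq starts at large, which was not tested. The RefSeq set includes genes with no peak in the table, and genes with other kinds of peaks were not compared. The difference therefore cannot be tied to deep intron peaks or to long genes.

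The deep intron peaks lay a median of 118 kb from the start, with 1539 of them within 100 kb, 289 beyond 500 kb and 86 beyond 1 Mb. Host transcripts had a median length of 203 kb, and the median peak sat 69.9% of the way along its transcript. Intron 2 held 786 of the peaks (21.2%), the last intron held 469, and 39 lay on chromosome X. The peaks were narrow, with a median width of 394 bases against 456 over the whole table. A single deep intron peak was found in 957 genes, and 146 genes held 5 or more. For 198 peaks, in 129 genes, the table gives no symbol. Next to the 50 kb limit, the closest peaks inside were those of Rad54l2 (50020 bases from the start), Agpat4 and M1ap, with log2 changes of 0.77, 0.72 and -0.24. Just outside were those of Igsf8 (49989 bases), Rcor1 and Fam114a1, with -0.75, 0.59 and -0.11.

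Far from one start did not always mean far from every start. Of the 3708 peaks, 824 lay within 50 kb of some other transcript start that the table lists, 255 of these a start of the same gene, and 58 lay within 3 kb of one. For 48 peaks the distance belonged to another transcript than the intron annotation, and 24 of these were 50 kb or less from the start of the annotated transcript. Without the 824 peaks, 230 of the deep intron peaks were higher and 171 lower at an unadjusted p under 0.05, and the median log2 change over them was 0.13. No share was computed for these remaining peaks. With the 824 included, 300 were higher and 211 lower of 3560 tested, with a median of 0.12. Over all 22051 tested peaks, 1419 were higher (6.44%) and 1702 lower (7.72%).

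Fgfr2, a fibroblast growth factor receptor, held the most deep intron peaks, 35, and the farthest, 2691 kb from its start. Of these, 34 were assigned to a single transcript of 2.96 Mb (chromosome 7, 129764181 to 132725079), while the other transcript of the gene in the table spans 104 kb. Inside the extra span the table lists 21 peaks of 12 other genes, among them Tacc2, Plekha1, Htra1, Ctbp2 and Acadsb, and 20 of the 34 peaks lay within 50 kb of another listed start. These peaks therefore cannot be counted as elements of Fgfr2 from the annotation alone. Their median log2 change was 0.31, with 24 of 34 positive. The farthest one had 25.8, 37.7 and 17.5 CPM in controls and 33.2, 18.7 and 27.6 CPM with Dyrk1b, so the groups overlapped.

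Levels are given as CPM, the reads in a peak scaled to the same total of reads in peaks for each library after TMM, a normalization that assumes most peaks do not differ. Changes are log2 ratios of Dyrk1b over control with a standard error (SE). The SE was worked back from the log2 ratio and the F statistic of edgeR's quasi-likelihood test. Libraries held between 762633 and 1267934 reads in peaks, and the median deep intron peak held 19 to 37 reads per library, against 26 to 47 over all peaks. The filter on low counts left 3560 of the 3708 peaks and removed 148 (3.99%, against 1.14% of the other peaks). Of 16 hepatocyte marker genes, 7 had a peak in the table, among them Alb, Apoa1, Apob and Hnf4a, and Ttr, Cps1, Cyp2e1, Tat, Tf, Ahsg, Apoa2, Serpina1a and Serpina1c had none.

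No single deep intron peak passed the test. With edgeR's quasi-likelihood test and Benjamini-Hochberg adjustment over all 22051 peaks tested, 0 were called higher and 0 lower at an adjusted p under 0.05, where 0.00907% of all tested peaks were called higher and 0.0227% lower. DESeq2 called 0 too, though it gave no adjusted p to most peaks. At an unadjusted p under 0.05, 300 deep intron peaks were higher (8.43%, against 6.44% of all tested peaks) and 211 were lower (5.93%, against 7.72%). The 3 Dyrk1b libraries all lay above the 3 controls in 457 peaks (12.8%, against 9.53% of all tested) and all below in 244 (6.85%, against 9.97%). The median log2 change was 0.12, with 59.5% of the peaks positive, against 0.0047 and 50.5% over all tested peaks. Later-intron peaks within 50 kb of the start had a median of 0.054, first-intron peaks beyond 3 kb had 0.058, and promoter and 5′ leader peaks had -0.077. In the authors' deposited table the lowest FDR of a deep intron peak was 0.215, at Dpf3, and 487 had a p under 0.05.

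The deep intron peaks took a slightly larger part of the reads with Dyrk1b. They held 11.6%, 11.6% and 11.4% of the reads in peaks in controls 1, 2 and 3, and 12.3%, 11.8% and 12.4% in Dyrk1b libraries 1, 2 and 3. The means were 11.6% ± 0.10 and 12.2% ± 0.28 (SD, n = 3 per group), and the groups did not overlap. Promoter and 5′ leader peaks held 34.0% to 35.4% of the reads in controls and 32.0% to 34.6% with Dyrk1b.

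The direction of change went with the strength of a peak. All tested peaks were split by their mean CPM into 4 strength groups of equal size, with limits at 25.2, 35.9 and 53.1 CPM. From the weakest group to the strongest, the median log2 change of the deep intron peaks was 0.34, 0.13, 0.0043 and -0.17 (1482, 1017, 738 and 323 peaks). Over all peaks the same medians were 0.32, 0.093, -0.043 and -0.15, and the difference from the deep intron peaks at equal strength was not tested. They were weak peaks, with 41.6% in the weakest group and 9.07% in the strongest, while promoter and 5′ leader peaks had 10.96% and 43.4%. When edgeR's offsets followed peak strength (loess offsets), 178 deep intron peaks were higher and 306 lower at an unadjusted p under 0.05, and the median was 0.043. Lower deep intron peaks thus outnumbered higher ones under that scaling. Over all tested peaks the loess counts were 1112 higher and 1634 lower of 22051. Lower deep intron peaks also outnumbered higher ones without Dyrk1b 1, with 270 higher and 294 lower of 3676. Over all peaks that setting gave 1245 higher and 1692 lower of 22326. There 57.1% of the deep intron peaks were positive, against 49.96% of all. Scaled to the library totals behind the deposited RPKM, the counts were 381 and 62 of 3560, with a median of 0.29 and 71.2% positive. Over all peaks that scaling gave 1666 higher and 250 lower of 22051, with a median of 0.17 and 65.2% positive.

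**Figure D1:**
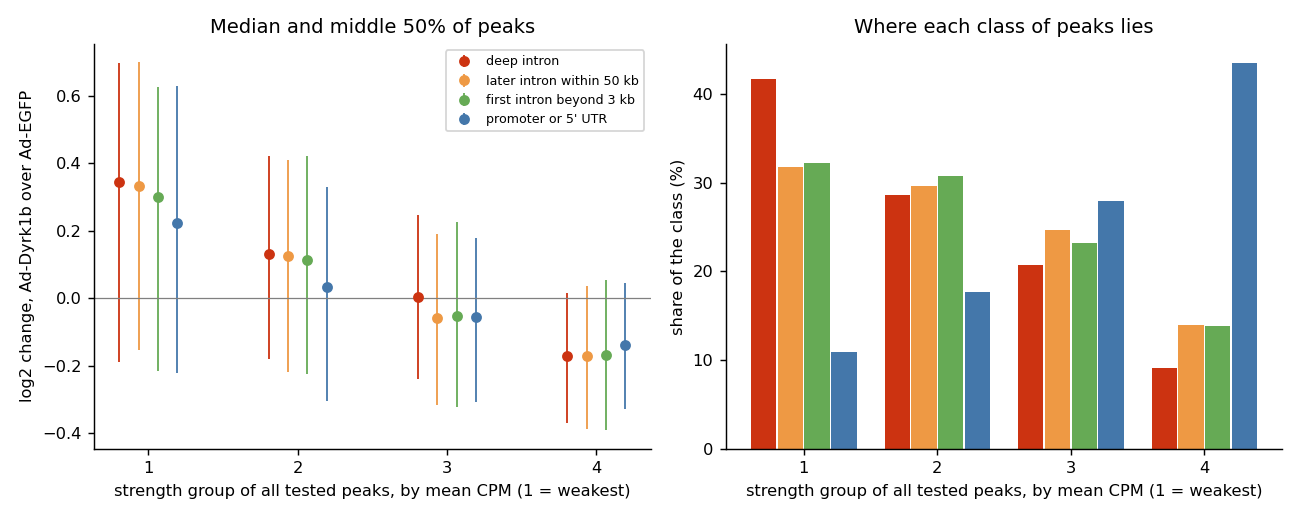
Left, median log2 change of Dyrk1b over control (points) with the middle 50% of peaks (bars) for 4 classes of peaks in each strength group by mean CPM. Right, the share (%) of each class in each group: the deep intron medians run from 0.34 in the weakest group to -0.17 in the strongest, and 41.6% of these peaks are in the weakest.

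Among the deep intron peaks that were higher, the lowest p belonged to a peak in intron 6 of 8 of Dpf3, which recognises acetylated histones for the BAF remodelling complex (chromosome 12, 83294460 to 83294873, 103 kb from the start). It had 8.21, 10.9 and 6.72 CPM in controls and 43.8, 22.1 and 39.2 CPM with Dyrk1b. Every Dyrk1b library was above every control, and the log2 change was 1.996 ± 0.45 (adjusted p = 0.0791, edgeR). The peak of Ppfibp2, a liprin scaffold protein, in intron 3 of 24 (chromosome 7, 107263215 to 107263570, 68.9 kb) had 10.6, 18.2 and 16.1 CPM against 43.8, 36.4 and 48.4 CPM. Its log2 change was 1.52 ± 0.36 (adjusted p = 0.0966, edgeR), while the peak at the start of Ppfibp2 had -0.25 ± 0.21 and overlapping groups.

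Sox5, a transcription factor of the SOX family, held 4 deep intron peaks. The one in intron 4 of 6 at 374 kb (chromosome 6, 144353724 to 144354162) had 12.9, 17.0 and 13.4 CPM in controls and 55.7, 25.4 and 46.8 CPM with Dyrk1b, for a log2 change of 1.55 ± 0.37 (adjusted p = 0.0966, edgeR). A second, at 431 kb, had 4.69, 12.1 and 1.34 CPM against 14.6, 32.0 and 22.3 CPM, or 1.88 ± 0.60. In both the groups did not overlap. The other two had log2 changes of -0.35 ± 0.26 at 152 kb and 0.031 ± 0.41 at 571 kb, and the last of these was 1226 bases from another listed start.

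Zmiz1, a coactivator with a PIAS-type SUMO ligase domain, held a higher and a lower peak within one gene. At 94.2 kb, in intron 3 of 23 (chromosome 14, 25553702 to 25554080), CPM was 11.7, 12.1 and 5.38 in controls and 55.7, 17.6 and 33.0 with Dyrk1b, a log2 change of 1.81 ± 0.45 (adjusted p = 0.105, edgeR). At 61.4 kb, in intron 2 (25520885 to 25521220), CPM was 43.4, 40.1 and 51.1 in controls and 21.2, 23.2 and 16.9 with Dyrk1b, a change of -1.14 ± 0.33 (adjusted p = 0.140, edgeR). The groups did not overlap in either, and 32.5 kb separate them. The 7 other deep intron peaks of Zmiz1 had log2 changes between -0.39 and 0.44.

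The remaining higher peaks of the 12 with the lowest p were in Ap3b1, Xylt1, Mcph1, Setbp1, Snd1, Egf, Babam2 and Antxr1. Their log2 changes ran from 0.98 (Antxr1) to 1.98 (Ap3b1), with adjusted p of 0.105 to 0.147 by edgeR. Ap3b1 encodes a subunit of the AP-3 adaptor that sorts proteins to lysosomes, and its peak at 71.7 kb had 5.86, 10.9 and 6.72 CPM in controls and 50.4, 19.8 and 25.3 CPM with Dyrk1b. Xylt1 encodes the xylosyltransferase that starts proteoglycan sugar chains, and its peak at 106 kb had 14.1, 10.9 and 18.8 CPM against 35.8, 44.1 and 39.9 CPM. The Egf peak, in intron 22 of 23 of the gene for epidermal growth factor, had 11.7, 10.9 and 8.07 CPM against 42.5, 21.0 and 29.9 CPM. Antxr1, a collagen-binding receptor, had narrow groups at 122 kb, with 28.1, 26.7 and 29.6 CPM against 51.8, 59.5 and 55.3 CPM. Of these 12 higher peaks, all had groups that did not overlap, since the rule asked for it.

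**Figure D2:**
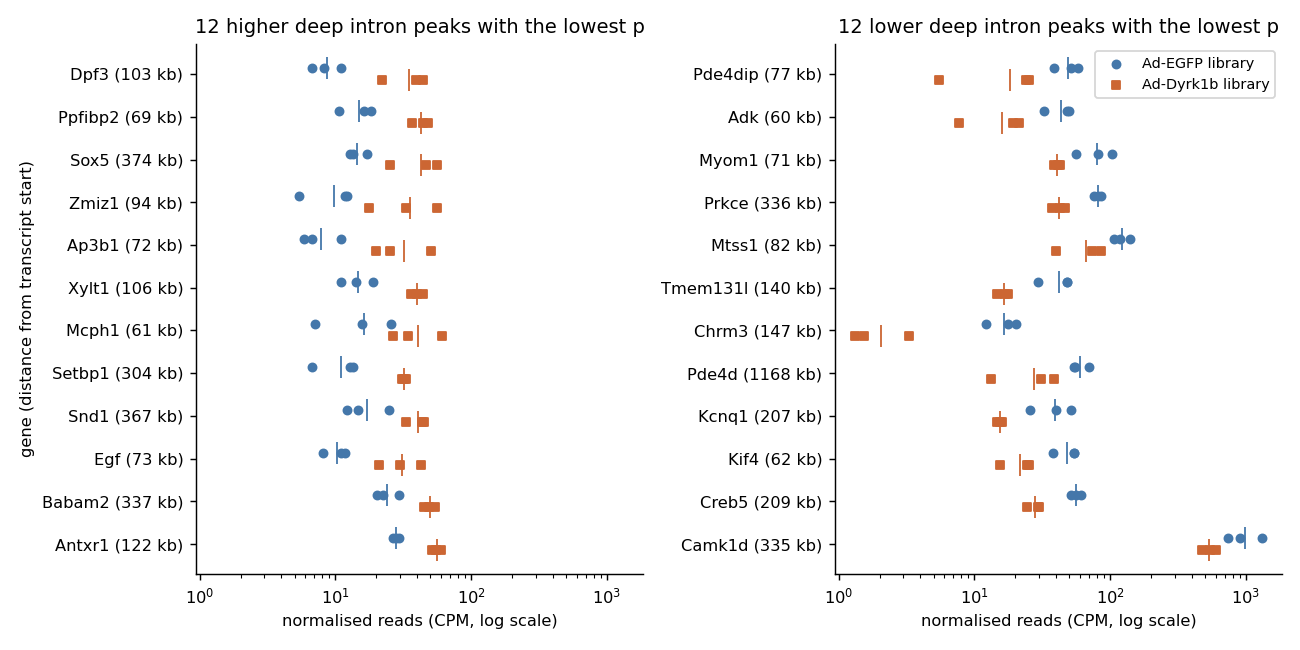
Normalised reads (CPM, log axis) of the 12 higher and the 12 lower deep intron peaks with the lowest p, chosen among those whose groups do not overlap. Points are libraries (3 per group) and ticks are group means: the higher peaks start from control means of 7.84 to 28.1 CPM, and the Camk1d peak, at a control mean of 988 CPM, stands far above the others. Whether the Camk1d signal came from open chromatin was not tested.

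Among the lower peaks, those of Adk shared 1 sign over the whole gene. In intron 3 of 10, a cluster of 3 peaks spanned 7.96 kb (chromosome 14, 21155069 to 21163024), and another lay 358 kb from the start in intron 9. The peak at 60.3 kb had 48.1, 32.8 and 49.7 CPM in controls and 21.2, 7.72 and 19.2 CPM with Dyrk1b, for a log2 change of -1.43 ± 0.37 (adjusted p = 0.105, edgeR). At 52.7 kb CPM was 59.8, 41.3 and 49.7 against 34.5, 25.4 and 12.3 (-1.13 ± 0.33). The third peak of the cluster, at 54.2 kb, had 39.9, 54.7 and 69.9 CPM against 23.9, 30.9 and 31.5 CPM (-0.91 ± 0.30). Far inside the gene, at 358 kb, CPM was 19.9, 24.3 and 30.9 against 17.3, 3.31 and 5.37 (-1.60 ± 0.55). All 4 had every Dyrk1b library below every control, and none passed the test. The peak at the Adk start was also lower in each Dyrk1b library, with 123, 131 and 137 CPM against 81.0, 65.1 and 102 CPM (-0.64 ± 0.21, adjusted p = 0.190, edgeR). Which of the Adk starts printed above it marks was not tested.

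Tmem131l showed opposite signs at its ends. The deep intron peak, in intron 33 of 34 (chromosome 3, 83806915 to 83807445, 140.3 kb), had 48.1, 29.2 and 48.4 CPM in controls and 14.6, 17.6 and 16.9 CPM with Dyrk1b, for a log2 change of -1.34 ± 0.36 (adjusted p = 0.112, edgeR). The peak in the 5′ leader had 24.6, 17.0 and 26.9 CPM against 29.2, 40.8 and 46.1 CPM, a change of 0.78 ± 0.34 (adjusted p = 0.297, edgeR). Groups overlapped at neither, and the difference between the peaks was not tested.

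The other lower peaks of the 12 lay in genes of varied function. Pde4d, which degrades cyclic AMP, held 13 deep intron peaks, 9 of them negative. Its peak at 1168 kb (chromosome 13, 109958694 to 109959254) had 70.3, 54.7 and 53.8 CPM in controls and 13.3, 30.9 and 38.4 CPM with Dyrk1b (-1.06 ± 0.30, adjusted p = 0.132, edgeR). Pde4dip, which encodes myomegalin, a protein that binds this phosphodiesterase, had 57.5, 38.9 and 51.1 CPM against 23.9, 5.51 and 25.3 CPM at 76.7 kb, a log2 change of -1.40 ± 0.35. Kcnq1, a voltage-gated potassium channel, had 25.8, 40.1 and 51.1 CPM against 15.9, 15.4 and 14.6 CPM at 207 kb (-1.34 ± 0.38), a position 17.6 kb from another listed start. Chrm3, the M3 muscarinic acetylcholine receptor, had the lowest level of these, with 17.6, 12.1 and 20.2 CPM against 1.33, 3.31 and 1.54 CPM. Its fitted log2 change of -2.94 ± 0.81 rests on 1 to 3 reads in each Dyrk1b library, and 1 is the lowest count the table holds.

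Prkce, the epsilon isoform of protein kinase C that diacylglycerol activates, held 16 deep intron peaks between 230.0 and 479.6 kb. One in intron 10 of 14 (chromosome 17, 86810580 to 86811251, 336 kb) had tight groups, 85.6, 76.5 and 82.0 CPM in controls and 37.2, 43.0 and 46.8 CPM with Dyrk1b, for a log2 change of -0.93 ± 0.25 (adjusted p = 0.112, edgeR). Another in that intron, at 355 kb, had 36.3, 26.7 and 32.3 CPM against 15.9, 9.92 and 14.6 CPM (-1.23 ± 0.42). Over the gene 7 of the 16 peaks were positive, and the start-site peak had 0.10 ± 0.29.

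Creb5, a bZIP transcription factor, had similarly tight groups at 209 kb, with 51.6, 60.7 and 56.5 CPM against 29.2, 24.3 and 29.9 CPM (-1.01 ± 0.29, adjusted p = 0.140, edgeR). Mtss1, a protein that bends the membrane and binds actin, held 4 peaks, all negative, of which the one at 82.5 kb had 140, 119 and 108 CPM against 39.8, 73.9 and 85.2 CPM (-0.85 ± 0.23). Myom1 (M-band of muscle) and Kif4 (a kinesin of mitotic chromosomes) completed the 12, with log2 changes of -0.97 and -1.15.

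**Figure D3:**
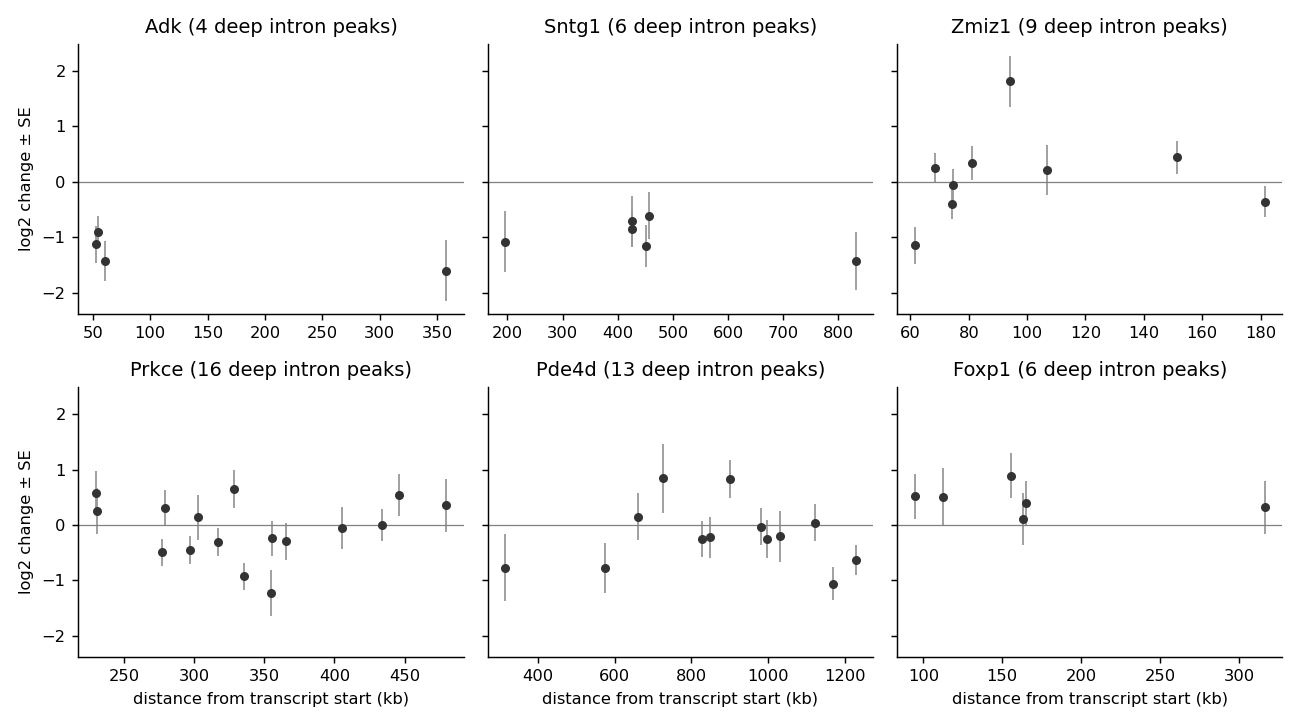
Log2 change ± SE of every tested deep intron peak of 6 genes against its distance from the transcript start in kb. The peaks of Adk and Sntg1 are all negative and those of Foxp1 all positive, while Zmiz1, Prkce and Pde4d hold peaks of both signs.

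Of 249 genes with at least 4 tested deep intron peaks, 18 had only positive and 7 only negative changes. The 7 were Adk, Sntg1, Pard3b, Mtss1, Rarb, Bmper and Colec12. Sntg1, a syntrophin of the dystrophin complex that is known mainly from neurons, had 6 negative peaks with a median log2 change of -0.96 and 3 at an unadjusted p under 0.05. Pard3b, a cell polarity protein, had 5 with a median of -0.55, and Rarb, a retinoic acid receptor, 4 with -0.63. Among the 18 were Agap1 and Foxp1 with 6 peaks each and medians of 0.52 and 0.45, Immp2l with 5 and 0.30, and Rptor with 5 and 0.43. Foxp1 is a forkhead transcription factor, and Rptor is the subunit of mTORC1 that recruits its substrates. The Rptor peak with the lowest p (158 kb) had 4.69, 21.9 and 9.41 CPM in controls and 29.2, 29.8 and 35.3 CPM with Dyrk1b, for a log2 change of 1.39 ± 0.44. Peaks of a gene share a locus and are not independent, and how many such genes would arise without a group difference was not tested. Other genes rich in deep intron peaks had medians of either sign: Gm37240 0.24 over 14 peaks, Gse1 -0.15 over 14, Itpr1 0.0083 over 12, and 0.29 for Esrrg, 0.082 for Lpp, 0.44 for Mad1l1 and -0.070 for Rad51b, each over 11.

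Distance from the start went with the direction of the peaks at an unadjusted p under 0.05. Higher and lower peaks numbered 131 and 74 of 1498 tested at 50 to 100 kb. At 100 to 200 kb they were 92 and 60 of 1076, and at 200 to 500 kb 61 and 46 of 721. At 500 to 1000 kb they were 14 and 20 of 188, and beyond that 2 and 11 of 77. Over all tested peaks 6.44% were higher and 7.72% lower. The 34 peaks of the long Fgfr2 transcript, 4 of them at this p, are counted here by their distance along it. The counts were not repeated without them. Up to 500 kb, 284 were higher and 180 lower of 3295 tested. Beyond 500 kb, 16 were higher and 31 lower of 265 tested, in 104 genes. The medians hardly moved with distance (0.13, 0.13, 0.11, 0.13 and 0.024). Within the weakest of the 4 strength groups, 158 were higher and 59 lower of 1336 up to 500 kb, against 10 and 21 of 146 beyond. Leaving out each library in turn gave 14 to 18 higher and 22 to 44 lower peaks beyond 500 kb. With loess offsets the counts there were 11 and 45, and scaled to the RPKM library totals they were 25 and 16. Among peaks with at least 20 reads in 3 libraries, 159 of them beyond 500 kb, they were 13 and 12. Lower peaks did not outnumber higher ones under either of these settings. The difference between the distances was noticed in these data and was not tested.

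**Figure D4:**
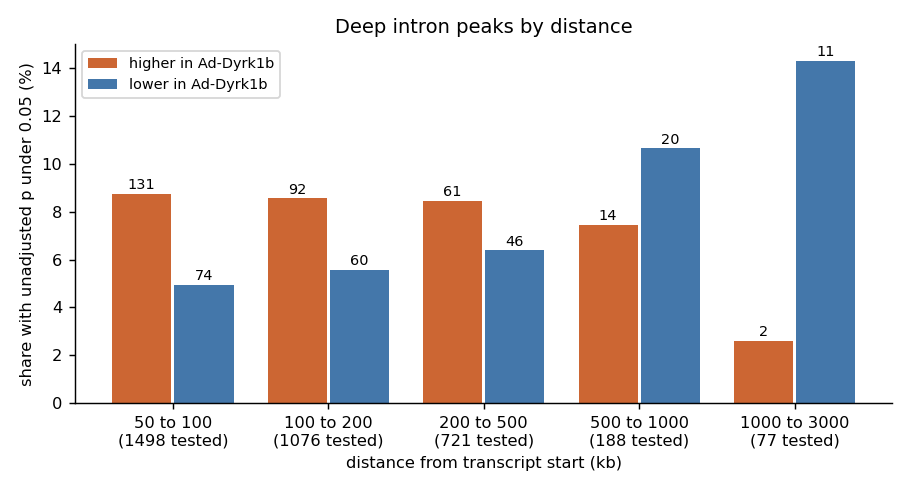
Share of tested deep intron peaks at an unadjusted p under 0.05 that were higher (orange) or lower (blue) with Dyrk1b, by distance from the transcript start in kb, with the number of peaks above each bar. Higher peaks outnumber lower ones up to 500 kb (131 against 74 in the nearest bin), and beyond 1000 kb 11 were lower and 2 higher. Over all tested peaks the shares were 6.44% higher and 7.72% lower. Peaks of the long Fgfr2 transcript are included.

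Of the 11 lower peaks beyond 1 Mb, 2 were on the long Fgfr2 transcript described above, whose peaks cannot be assigned to that gene. Nrxn3, a neurexin, had 22.3, 41.3 and 16.1 CPM in controls and 9.29, 5.51 and 11.5 CPM with Dyrk1b at 1597 kb (-1.56 ± 0.51). A different peak of Nrxn3, at 1089 kb, was one of the 2 higher ones (0.97 ± 0.43), and the other belonged to Fgfr2. Dlg2, a synaptic scaffold, had 22.3, 15.8 and 28.2 CPM against 9.29, 7.72 and 6.91 CPM at 1384 kb (-1.47 ± 0.56). Gpc5, a glypican, had 55.1, 52.2 and 41.7 CPM against 33.2, 32.0 and 19.96 CPM at 1356 kb (-0.84 ± 0.31). Macrod2, an ADP-ribose hydrolase in a common fragile site, had 36.3, 15.8 and 49.7 CPM against 11.9, 16.5 and 17.7 CPM at 1309 kb, where the groups overlapped (-1.10 ± 0.41). Il1rapl1 and Ptprd had log2 changes of -1.43 and -0.92, and Pde4d supplied 2 others. The 13 peaks had adjusted p of 0.132 or more by edgeR.

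The gene lists covered 279 host genes and 828 tested peaks, with 0 called in any list. Transcription factors and chromatin proteins (78 genes, 236 tested peaks) had the most uneven count, 28 higher (11.9%, against 6.44% of all tested peaks) and 9 lower (3.81%, against 7.72%) at an unadjusted p under 0.05, with a median log2 change of 0.11. Dpf3, Sox5 and Jarid2 had the lowest p there, and Jarid2 was lower. Insulin and growth factor signalling (135 peaks) had 7 higher (5.19%) and 14 lower (10.4%) with a median of 0.069. Adk, which was put on this list although it encodes adenosine kinase, supplied 4 of the lower ones. Prkce supplied 3, and Fgfr2 and Grb10 2 each. Of the list's peaks 35 are those of Fgfr2. Leaving these out, which was decided once the values were known, gave 5 higher and 12 lower of 100, with a median of -0.0074. Those 12 still include the 4 of Adk, and the list was not counted without Adk. The lower peaks of this list thus rest in part on a gene outside its theme. Cyclic nucleotide and calcium signalling (145 peaks) had 13 higher (8.97%) and 9 lower (6.21%) with a median of 0.15. There Camta1, a calmodulin-binding transcription factor, had 18.8, 12.1 and 13.4 CPM against 58.4, 11.03 and 53.0 CPM at 201 kb (1.45 ± 0.41), with Dyrk1b 2 inside the control range.

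Metabolic genes of hepatocytes (38 genes, 84 peaks) had 4 higher (4.76%, against 6.44% of all tested peaks) and 6 lower (7.14%, against 7.72%). Their median was 0.036. Acaca, acetyl-CoA carboxylase of fatty acid synthesis, had a peak in intron 54 of 55 at 222 kb with 10.6, 14.6 and 9.41 CPM in controls and 27.9, 35.3 and 25.3 CPM with Dyrk1b (1.34 ± 0.45, adjusted p = 0.193, edgeR). Galnt2, which starts O-linked sugar chains, had 15.2, 21.9 and 21.5 CPM against 34.5, 38.6 and 41.5 CPM at 85.3 kb (0.97 ± 0.35). Genes of the Hippo pathway and the DYRK family, which take in Dyrk1b and the YAP-binding coactivator Wbp2 of the series title, had 27 peaks. Of these, 3 were higher (11.1%) and 2 lower (7.41%), with a median of 0.15. Tead1, the DNA-binding partner of YAP, had 73.9, 81.4 and 64.5 CPM against 43.8, 38.6 and 48.4 CPM at 109 kb (-0.74 ± 0.25, adjusted p = 0.196, edgeR). Hipk2, a kinase related to DYRKs, and Ptpn14, a phosphatase that restrains YAP, had log2 changes of 0.83 ± 0.35 and 1.18 ± 0.52, and in each the groups did not overlap. Hipk2 had 17.6, 25.5 and 25.5 CPM in controls and 26.5, 67.3 and 28.4 CPM with Dyrk1b, and without the high Dyrk1b 2 its change was 0.27.

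Giant genes of common fragile sites (87 peaks) had 7 higher (8.05%, against 6.44% of all tested peaks) and 8 lower (9.20%, against 7.72%). Their median was 0.051. Vps13b, a lipid transport protein, had 31.7, 24.3 and 9.41 CPM against 43.8, 44.1 and 38.4 CPM at 516 kb (0.92 ± 0.35, and 0.58 without control 3). Exoc4, of the exocyst, had 1.48 ± 0.56 at 478 kb. Adhesion, guidance and synaptic genes (128 peaks) had 12 higher (9.38%) and 14 lower (10.9%) with a median of 0.095. Csmd3, a giant transmembrane protein, had 27.0, 12.1 and 32.3 CPM against 9.29, 8.82 and 3.84 CPM at 774 kb (-1.74 ± 0.58). Cdh18, a cadherin, had 32.8, 26.7 and 26.9 CPM against 15.9, 14.3 and 3.84 CPM at 666 kb (-1.42 ± 0.48, and -0.92 without Dyrk1b 3).

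Peaks of cell type markers were read from the whole table and include some deep intron peaks. Of 9 tested peaks at hepatocyte markers 8 were negative, with a median log2 change of -0.39 and summed levels of 370.5 to 532 CPM in controls and 366 to 392 CPM with Dyrk1b. Of 21 tested peaks at markers of other liver cells, in 16 genes, 16 were positive, with a median of 0.41. Over all tested peaks 50.5% were positive. The endothelial markers held 1 deep intron peak and the lymphocyte markers 4, so these values are partly those of the deep intron peaks themselves. Summed levels at macrophage and Kupffer markers were 164 to 206 CPM in controls and 162 to 185 CPM with Dyrk1b. The part of cell make-up in the changes of the deep intron peaks was not tested.

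At some of the strongest deep intron peaks a single library stood apart from the rest of its group. Per length, the median deep intron peak had a deposited RPKM of 1.45 over the 6 libraries, and 12 exceeded 5 RPKM. Among these 12 were peaks of Chl1, Camk1d, Kctd16, Drg1, Sfi1 and Jarid2. Whether signal so far above the median came from open chromatin was not tested. These 12 peaks therefore cannot be counted as elements of their host genes. Chl1, a neural cell adhesion molecule, had the highest (chromosome 6, 103625986 to 103626351), at 16.0, 56.0 and 49.999 RPKM in controls and 48.6, 53.8 and 52.4 RPKM with Dyrk1b. Control 1 alone was low, and the log2 change of 0.17 turned to -0.24 without it. At the start of chromosome 11, 7 peaks of Drg1 and Sfi1 within 68.1 kb (3081890 to 3150001) had mean RPKM of 10.7 to 17.3 and took 2.36% to 4.19% of all reads in deep intron peaks. Their log2 changes lay between -0.39 and 0.024, with 0 at an unadjusted p under 0.05, and the Drg1 peaks lay 1975 to 3825 bases from another listed start.

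A pair of CPM profiles recurred among the strongest peaks. Chl1 had 264, 1104 and 949 CPM in controls and 1083, 824 and 709 CPM with Dyrk1b. The strongest Drg1 peak had 1127, 1409 and 1453 CPM against 1766, 1020 and 987 CPM. In both, control 1 was the lowest control and Dyrk1b 1 the highest Dyrk1b library, as at an exonic peak of Gm10800, the strongest of the table, whose share of a library's reads was 1.79% in control 1 and between 2.94% and 5.30% elsewhere. Control 1 was instead the highest control for Camk1d, a calcium and calmodulin dependent kinase, in intron 3 of 10 (chromosome 2, 5383935 to 5384294, 335 kb). It had 1316, 741 and 909 CPM against 597, 475 and 539 CPM. In CPM, control 1 was the highest of all libraries, and Dyrk1b 1 was again the highest of its group. Its groups did not overlap (-0.88 ± 0.25, adjusted p = 0.140, edgeR), and without control 1 the change was -0.62. The Jarid2 peak at 139 kb, in the gene of a cofactor of the repressive PRC2 complex, followed the Camk1d profile with 246, 89.9 and 163 CPM against 107, 80.5 and 71.4 CPM (-0.96 ± 0.23, adjusted p = 0.0966, edgeR). Its groups overlapped, and without control 1 the change was -0.56. At the Camk1d start the change was 0.28 ± 0.25. The place of Dyrk1b 1 depended on the scaling. By deposited RPKM it was the lowest of its group for Camk1d (27.2 against 31.6 and 40.5), Chl1 and Jarid2. It stayed the highest of its group for the strongest Drg1 peak and Gm10800. In RPKM the Camk1d groups overlapped, with 38.2 in control 2 and 40.5 in Dyrk1b 3.

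**Figure D5:**
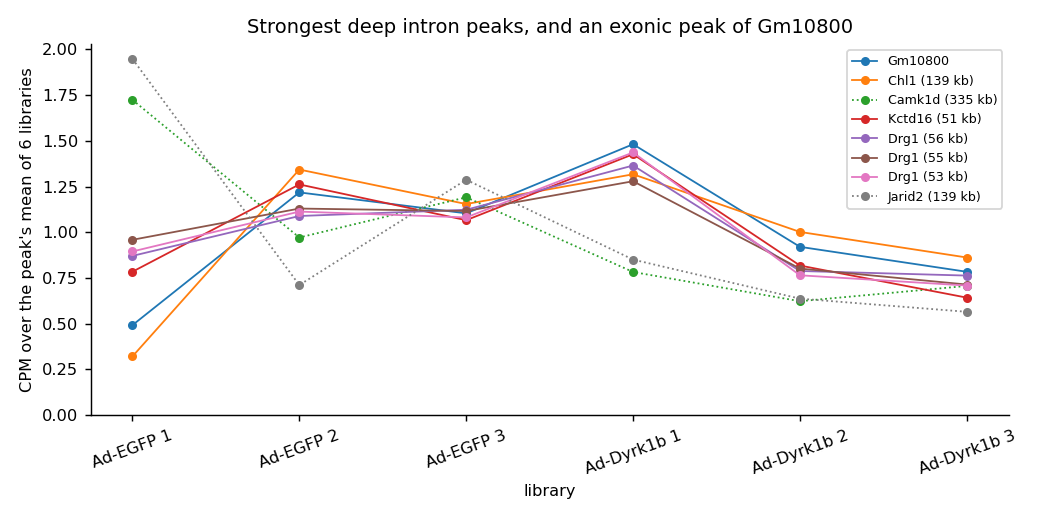
CPM of the strongest deep intron peaks, the Jarid2 peak at 139 kb and the exonic Gm10800 peak in each of the 6 libraries, divided by the mean of the peak over the libraries. Solid lines (Chl1, Kctd16, Drg1, Gm10800) are lowest in Ad-EGFP 1 among controls and highest in Ad-Dyrk1b 1 among Dyrk1b libraries, and dotted lines (Camk1d, Jarid2) are highest in Ad-EGFP 1.

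Which deep intron peaks pass depended on the libraries. Without Dyrk1b 2, peaks of Camta1 (adjusted p = 0.0265, edgeR), Dpf3, Sox5 and Zmiz1 (0.0424 each) were called higher. Without Dyrk1b 1, peaks of Myo10 and Sntg1 were called lower (0.0430 each, edgeR), and without control 2 the Jarid2 peak was (0.0406, edgeR). Leaving out any other library called none of the deep intron peaks. Over all peaks, 6 of 22272 were called higher without Dyrk1b 2. Without Dyrk1b 1, 9 of 22326 were called lower, and without control 2, 3 of 22267. The deep intron peaks tested in these fits numbered 3658, 3676 and 3656. The log2 changes of the named peaks were 1.89, 2.24, 1.81 and 2.13 for the higher ones, and -1.89, -2.01 and -1.26 for the lower ones, in the same directions as with all libraries. With another library left out, the Sntg1 and Jarid2 changes were as small as -0.73 and -0.56.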

How the data were processed

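ATAC-seq of 6 mouse liver samples was analysed, 3 labelled Ad-EGFP and 3 labelled Ad-Dyrk1b. The authors deposited 1 table of merged peaks with, per the file headers, whole read counts and RPKM values per library, group means of RPKM, a log2 ratio of those means, a p-value and an FDR. Distances and introns are those of the deposited annotation. The submitters' processing notes name Bowtie2, DiffBind, ChIPseeker and mm10. The peak caller, the treatment of duplicates and of the transposase offset, and how the authors' p-values were computed were not found in these sources. No count is under 1, so an empty peak may be listed as 1, and 111 deep intron peaks have such a count. Of 9460 genes compared with GRCm38, 3.55% started within 2 kb of their place there (median shift 132 kb), so coordinates stand as in the table and their build is not settled.

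Counts of all peaks were fitted together with edgeR 4.0.16 in R 4.3.3 (TMM, filterByExpr, quasi-likelihood test, no covariate, Benjamini-Hochberg over 22051 peaks, calls at 0.05), which was tested on simulated data. The common biological coefficient of variation was 19.9%. Precision is limited by the low number of reads per peak. Alternatives used DESeq2 1.42.0, limma 3.58.1 (prior count 2), other scalings and filters, and each library left out in turn.

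Named peaks are the 12 per direction with the lowest p whose groups do not overlap (at most 1 from a gene, with no predicted genes), the 6 with the highest mean RPKM, the 8 genes with most peaks, up to 3 genes from each of 7 function lists (another list and another gene are not reported here), the farthest peak and those next to the limit. Those of Sfi1, Gm10800, the other peaks and start-site peaks of named genes, genes whose peaks share a sign, those beyond 1 Mb and those called under an alternative were picked once their values were known. The members and lists were chosen with earlier results of these data known.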

Additional observations from a re-analysis of the deposited data

How the results depend on the processing

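With all 6 libraries, every scaling, filter and tool tried called 0 deep intron peaks. A distance limit of 25 kb added 1 called higher, and leaving out 1 library gave 0 to 4 called higher and 0 to 2 called lower. Over all peaks, leaving out 1 library gave 0 to 6 called higher and 0 to 9 called lower. With all libraries, 2 and 5 of 22051 were called. Peaks higher and lower at an unadjusted p under 0.05 numbered 300 and 211, and 250 to 344 and 182 to 294 without 1 library. Without Dyrk1b 1 lower peaks outnumbered higher ones, 294 against 270, as they did over all peaks (1692 against 1245). Loess offsets gave 178 higher, the 100 kb limit 169 higher and 137 lower, at least 20 reads in 3 libraries 125 lower, and scaling to the RPKM library totals, chosen after seeing the data, 62 lower. Over all peaks the loess offsets gave 1112 higher, the filter of 20 reads 1241 lower and the RPKM totals 250 lower. The median log2 change of 0.12 became 0.043 with loess offsets, 0.29 with RPKM totals and 0.16 with library size alone. A fit with the replicate number as a block gave 280 higher and 194 lower, a median of 0.13 and 0 called. Whether the numbers pair the libraries is not known from the labels. Same-numbered libraries correlated at -0.0098, -0.014 and 0.0073 in their deviations from the group means. Differently numbered ones correlated at -0.024 to 0.032. With so few reads per peak these values cannot show whether libraries were paired.

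With loess offsets the list medians were -0.10 (fragile sites), -0.023 (adhesion), -0.010 (insulin and growth signalling), 0.025 (cyclic nucleotide and calcium) and 0.085 (Hippo and DYRK). With RPKM totals, in that order, they were 0.22, 0.29, 0.22, 0.31 and 0.33, with 0.29 for transcription and 0.21 for hepatocyte metabolism. The strict filter gave 0.094 for the calcium list. Without Fgfr2, chosen after seeing the data, the insulin list had -0.0074. Without 1 library they ranged from -0.085 to 0.042 (fragile sites), -0.023 to 0.13 (adhesion), 0.020 to 0.17 (insulin), 0.067 to 0.15 (calcium), 0.16 to 0.27 (Hippo) and 0.034 to 0.19 (transcription). The cause was not tested.

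Among the named peaks, those that turned sign had a change near 0. Leaving out 1 library gave -0.24 to 0.53 for Chl1, -0.50 to 0.12 for Kctd16, -0.48 to 0.099 for the Drg1 peak at 53259 bases, -0.40 to 0.071 for that at 56447 bases, and -0.26 to 0.28 for the farthest Fgfr2 peak. Loess offsets gave 0.068 for Kctd16, and 0.049 and 0.035 for these Drg1 peaks. RPKM totals gave 0.016 for the latter Drg1 peak and 0.11 for Fgfr2, and limma-trend gave 0.0034 for Fgfr2. The cause was not tested. With 19 to 37 reads in the median peak per library, single peaks carry wide errors.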
